A study of Mus musculus with 16 samples.

Results

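The 10 genes described here mark vascular endothelium: Pecam1, Cdh5, Kdr, Flt1, Tek, Tie1, Sox17, Eng, Egfl7 and Esam. They were taken by symbol from a count table of 13320 genes, and all 10 were found in it, with between 95 and 3893 counts per library. The table holds mRNA sequencing of quadriceps, a thigh muscle, and the mice were CD2F1 males, 8 weeks of age at the start. All 4 groups shared strain, sex and tissue, and each had 4 libraries. In the splenic C26 group, cells of the mouse colon carcinoma line C26 were injected into the spleen as a model of spread to the liver, while sham mice had the operation with saline. For subcutaneous C26, cells of the same line were placed under the skin, and what the matching control mice received is not stated. Both tumour groups rest on 1 tumour line, no group carries a genetic change by the labels, and the time of death is not given in weeks. The sample names put splenic C26 with sham and subcutaneous C26 with control, and these are the pairs compared below. Whether each library is a different animal is not stated, and p-values here reflect the spread among these libraries, which could be technical.

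Endothelial cells line blood vessels, and in muscle most of them lie in capillaries that run along the fibres. Vascular endothelial growth factor A (VEGF-A), made in muscle largely by the fibres, acts on these cells through the receptor kinase KDR, while FLT1 binds the same ligand tightly, signals weakly and also exists in a soluble form that holds ligand back. The angiopoietins act through TEK (also called TIE2), with TIE1 as a partner receptor, and the adhesion molecules encoded by Cdh5, Pecam1 and Esam hold neighbouring endothelial cells together.

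In quadriceps of tumour-bearing mice these 10 markers did not move as a block. Kdr fell in both tumour comparisons, to 0.413 times its sham level and 0.290 times its control level. Flt1, on the same chromosome and with the same ligand, was not called lower in either. Sox17 and Esam rose in both comparisons, to 2.83 and 2.27 times the sham level in splenic C26 and 1.55 and 1.37 times the control level in subcutaneous C26, the subcutaneous calls being lost with upper-quartile scaling. Cdh5 fell in subcutaneous C26 and did not pass the test in splenic C26, and Egfl7 rose in splenic C26, a call lost with upper-quartile scaling, and fell in subcutaneous C26. In bulk muscle, fewer endothelial cells and less of a transcript per cell cannot be told apart.

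The promoters of Kdr and Flt1, which encode receptors for 1 ligand, are shown. They had the largest and the next to smallest mean size of change among the 6 markers with promoters in the RefSeq table. Both lie on the minus strand of chromosome 5, and the sequences are RefSeq promoters of the mouse assembly GRCm38.p6, printed along the gene's strand from 250 bases before the start to 50 after it. Capitals mark matches to an ETS core (CCGGAA or CAGGAA, here on the opposite strand), a cAMP response element core (TGACGT, on both strands with an overlap) and a TATA box (TATAAA). The Kdr promoter is chr5:75978406-75978705 and the Flt1 promoter is chr5:147725962-147726261.
Kdr: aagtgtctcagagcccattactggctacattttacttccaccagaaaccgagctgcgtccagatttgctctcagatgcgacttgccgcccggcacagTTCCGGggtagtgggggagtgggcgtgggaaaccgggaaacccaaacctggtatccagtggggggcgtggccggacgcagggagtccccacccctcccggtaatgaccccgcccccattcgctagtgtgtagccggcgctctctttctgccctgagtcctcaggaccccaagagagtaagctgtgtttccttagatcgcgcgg
Flt1: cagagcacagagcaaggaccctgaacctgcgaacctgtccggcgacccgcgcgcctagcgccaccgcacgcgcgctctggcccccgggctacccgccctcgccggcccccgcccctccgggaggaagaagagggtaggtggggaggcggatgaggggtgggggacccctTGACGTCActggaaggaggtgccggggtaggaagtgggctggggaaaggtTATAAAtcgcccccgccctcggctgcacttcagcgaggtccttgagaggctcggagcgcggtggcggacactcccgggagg
The Kdr window held 1 ETS core, at bases -153 to -148 from the start counted as 0, and no TATA box or cAMP response element core. The Flt1 window matched neither of the ETS sequences searched. Both windows hold the shorter GGAA that these sequences share, in forms not searched, so no difference in ETS sites is shown. It held the cAMP response element core on both strands, at bases -81 to -74, and a TATA box at bases -31 to -26. Among 32817 mouse promoters of the same length, read on both strands, 41.4% held an ETS core, 7.51% the cAMP response element core and 13.6% the TATA box. Of the 6 markers with promoters in the RefSeq table, 8 sequences in all, Tek, Tie1, Eng and Egfl7 also held ETS cores. SP1 cores (GGGCGG), found in 35.6% of promoters, occurred 2 times in the Kdr window and 3 times in the Flt1 window. The GATA core AGATAA (11.2% of promoters) and the SOX core ACAAT (31.0%) were matched in the Tek window alone. These are matches of letters, chosen with the sequences in view, and binding was not measured.

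The libraries held 25.9 to 34.9 M counts, and levels are given as CPM, a gene's counts scaled to a common library total, after trimmed-mean (TMM) scaling. Tests are edgeR's quasi-likelihood test in 1 fit of all 16 libraries, with p-values adjusted by the Benjamini-Hochberg method over all genes and called at 0.05. Tumour libraries differed from tumour-free ones across much of the table: 52.0% of all genes were called in splenic C26 against sham and 50.0% in subcutaneous C26 against control, so a call by itself does not set a marker apart. Fibre transcripts were abundant in every library, with 146883 to 346202 summed CPM over 12 fibre markers. Splenic C26 replicate 1 and subcutaneous C26 replicate 3 stood apart, nearest the tumour-free libraries on the first principal component. In mean log2 level of 10 hepatocyte markers, splenic C26 replicate 1 and all 4 control libraries stood above the other 11 libraries, while in summed CPM the subcutaneous C26 libraries (68.0 to 152) and controls (103 to 321) overlapped. With upper-quartile scaling the median gene had a log2 fold change of -0.24 in splenic C26 and -0.26 in subcutaneous C26, against -0.03 and -0.02 with TMM scaling, so changes near those sizes depend on the scaling.

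**Figure D1:**
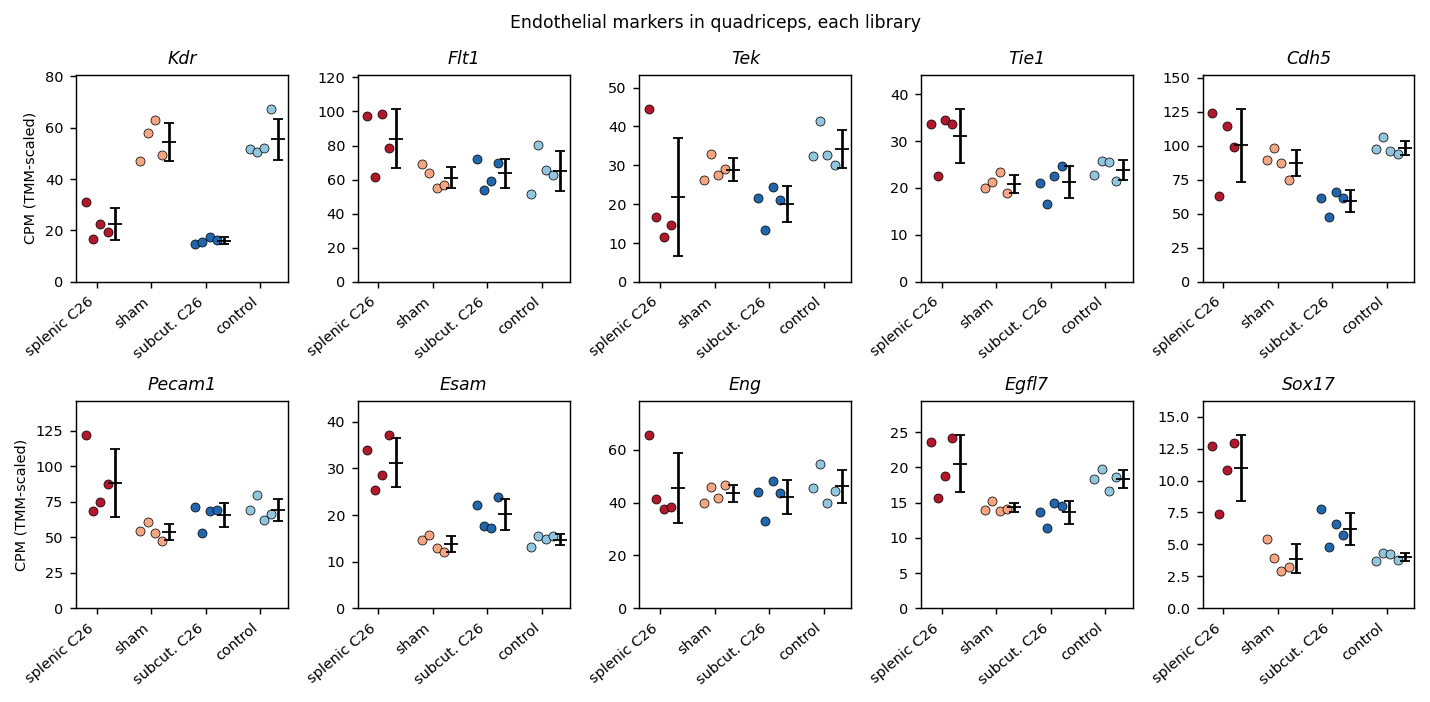
Level of each of the 10 endothelial markers in every library, in TMM-scaled CPM on axes that start at 0. Points are the 4 libraries of each group and the bar beside them is the mean ± SD. Kdr is low in all 8 tumour libraries, between 14.7 and 31.1 CPM, against 46.9 to 67.2 CPM in the tumour-free libraries.

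In splenic C26 against sham, 6 of the 10 markers rose (28.1% of all genes were called higher), 1 fell (23.9% of all genes were called lower) and 3 did not pass the test. The share of higher calls among all calls was 54.0% with TMM scaling and 38.5% with upper-quartile scaling, under which 3 of the 10 markers rose. Between splenic C26 and sham, 4 markers had no overlap with splenic C26 higher, against 21.1% of all genes, and 1 had none with splenic C26 lower, also against 21.1%. In subcutaneous C26 against control, 2 markers rose (27.0% of all genes were called higher), 3 fell (23.1% were called lower) and 5 did not pass. There the share of higher calls was 53.9% with TMM scaling and 34.85% with upper-quartile scaling, under which none of the 10 markers rose and 5 fell. Between subcutaneous C26 and control, 2 markers did not overlap with subcutaneous C26 higher (25.2% of all genes) and 4 did not with subcutaneous C26 lower (20.7%). Over the 10 markers the median log2 fold change was 0.49 in splenic C26 and -0.15 in subcutaneous C26, against -0.03 and -0.02 over all genes tested. With 7 and 5 of the 10 called, beside 52.0% and 50.0% of all genes, the counts alone do not set the 10 apart.

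**Figure D2:**
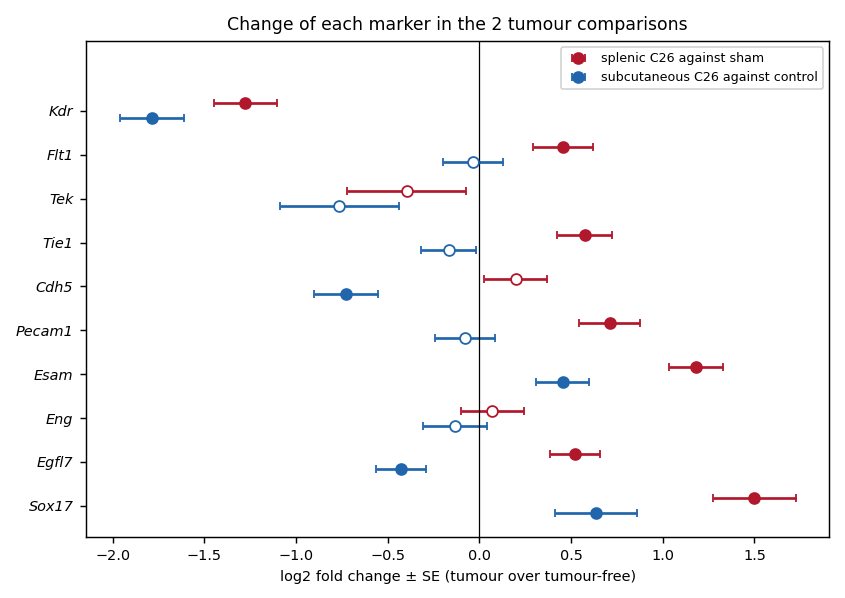
Log2 fold change ± SE of each marker, splenic C26 over sham in red and subcutaneous C26 over control in blue, from edgeR. Filled points passed an adjusted p of 0.05 and open points did not. Kdr lies at -1.28 and -1.79, left of all other markers, and all 10 red points lie to the right of their blue ones.

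Kdr, the main signalling receptor for VEGF-A, had the lowest fold change of the 10 in both comparisons. Kdr (chr5:75932827-75978458, minus strand, in mm10) had 31.1, 16.6, 22.3 and 19.5 CPM in splenic C26 muscles, against 46.9, 58.0, 63.0 and 49.4 CPM in sham muscles. It had 14.7, 15.6, 17.6 and 16.4 CPM in subcutaneous C26 muscles, against 51.8, 50.5, 52.2 and 67.2 CPM in controls. Every tumour library lay below every tumour-free one, and the highest tumour value was that of splenic C26 replicate 1. Kdr fell by 1.28 ± 0.17 (SE, n = 4 each) on the log2 scale in splenic C26 (edgeR quasi-likelihood test, adjusted p = 0.000105) and fell by 1.79 ± 0.17 in subcutaneous C26 (adjusted p = 1.5e-05). It was called lower under each of 20 alternative settings in both comparisons, with log2 fold changes between -1.58 and -1.16 in splenic C26 and between -2.02 and -1.68 in subcutaneous C26.

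Flt1 (chr5:147561604-147726011, minus strand) had 97.2, 61.8, 98.5 and 78.7 CPM in splenic C26 muscles, against 68.9, 64.2, 55.3 and 56.7 CPM in sham muscles. Flt1 had 72.1, 53.7, 59.1 and 69.7 CPM in subcutaneous C26 muscles, against 51.9, 80.1, 65.8 and 62.9 CPM in controls. The groups overlapped in both comparisons, and the splenic C26 library that overlapped was replicate 2. The log2 fold change was 0.46 ± 0.17 (SE, n = 4 each) in splenic C26, which passed the edgeR test with an adjusted p of 0.0306, and -0.03 ± 0.16 in subcutaneous C26 (adjusted p = 0.878). The splenic C26 call was lost with upper-quartile scaling (0.25, adjusted p = 0.226), in a fit of the 8 libraries compared (adjusted p = 0.0502), and without splenic C26 replicate 1 or 3 or sham replicate 3 or 4 (adjusted p = 0.0601 to 0.0935).

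The ratio of Flt1 to Kdr within a library depends on the scaling only through the 1 CPM added to each value. On log2(CPM + 1) values, changed back to a linear ratio, it was 3.05, 3.56, 4.26 and 3.88 in splenic C26 muscles, against 1.46, 1.10, 0.878 and 1.14 in sham muscles. In subcutaneous C26 muscles it was 4.67, 3.29, 3.23 and 4.06, against 1.0, 1.57, 1.25 and 0.937 in controls. No tumour library reached down to the highest tumour-free value. The ratio was 3.25 times the sham ratio in splenic C26 and 3.23 times the control ratio in subcutaneous C26 (exact two-sided permutation test, p = 0.0286 in each, the smallest that 4 against 4 libraries allow, and 0.0343 after adjustment over the 6 ratio tests made).

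**Figure D3:**
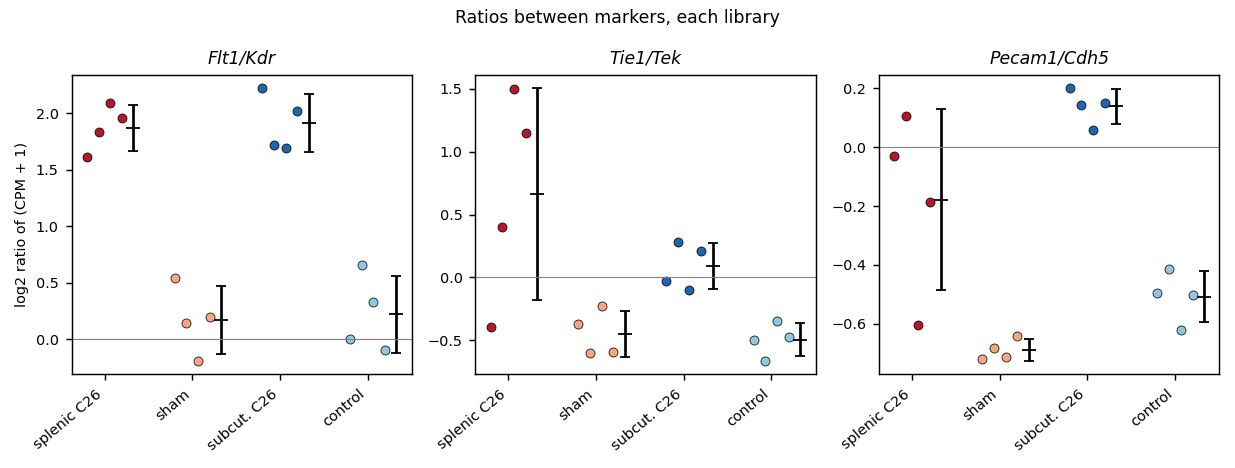
Log2 ratio of Flt1 to Kdr, Tie1 to Tek and Pecam1 to Cdh5 in each library, from CPM + 1, with the mean ± SD of 4 libraries beside the points and each panel on its own scale. For Flt1 to Kdr the tumour libraries lie between 1.61 and 2.22 and the tumour-free libraries between -0.19 and 0.65.

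The ligands and co-receptor on this axis did not follow a single course, and several of them are also made by fibres. Vegfa averaged 305 ± 156 CPM in splenic C26 muscles and 195 ± 6.02 CPM in sham muscles (SD, n = 4 each), and it averaged 234 ± 43.4 CPM in subcutaneous C26 muscles and 209 ± 22.9 CPM in controls. The splenic C26 values were 187, 188, 517 and 327 CPM, so 2 libraries lay inside the sham range of 187 to 201 CPM and 2 above it. Vegfa rose by a log2 fold change of 0.65 ± 0.26 in splenic C26 (edgeR adjusted p = 0.0475) and had 0.17 ± 0.26 in subcutaneous C26 (adjusted p = 0.611). Pgf, which encodes a ligand of FLT1 but not of KDR, rose by 1.23 ± 0.46 in splenic C26 (edgeR adjusted p = 0.0345) and had 0.90 ± 0.46 in subcutaneous C26 (adjusted p = 0.114). Vegfb, another FLT1 ligand, had -0.21 ± 0.18 and -0.37 ± 0.18 and passed in neither. Nrp1, the VEGF co-receptor neuropilin 1, fell by 0.67 ± 0.20 in each comparison (edgeR adjusted p = 0.0126 in splenic C26 and 0.0131 in subcutaneous C26). Vegfd, listed under its older symbol Figf and a ligand of the lymphatic receptor FLT4, rose by 2.48 ± 0.40 and 3.18 ± 0.41 (edgeR adjusted p = 0.000314 and 9.1e-05). Vegfc, the other FLT4 ligand, fell by 1.18 ± 0.24 and 2.41 ± 0.25 (edgeR adjusted p = 0.00119 and 2.8e-05). Its counts were low, at 99 over the splenic C26 libraries against 270 over sham, and 48 over subcutaneous C26 against 293 over controls. The VEGF list of 10 measured genes held ligands, co-receptors, the receptor gene Flt4 and the transcription factor genes Hif1a and Epas1. Of these 10, 4 rose and 2 fell in splenic C26, with a median log2 fold change of 0.23. In subcutaneous C26 1 rose and 2 fell, with a median of -0.13.

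Tek and Tie1, the angiopoietin receptor and its partner, both lie on chromosome 4. Tek (chr4:94739289-94874976, plus strand) had 44.5, 16.8, 11.6 and 14.7 CPM in splenic C26 muscles, against 26.2, 32.9, 27.4 and 29.0 CPM in sham muscles. In subcutaneous C26 muscles it had 21.6, 13.4, 24.3 and 21.2 CPM, against 32.5, 41.4, 32.6 and 30.1 CPM in controls. Splenic C26 replicate 1 lay above every sham library and the other 3 below every one, and in the subcutaneous comparison the groups did not overlap. Tek did not pass the edgeR test in either comparison, with log2 fold changes of -0.40 ± 0.32 (SE, n = 4 each) in splenic C26 (adjusted p = 0.313) and -0.76 ± 0.32 in subcutaneous C26 (adjusted p = 0.0613). Without splenic C26 replicate 1 the splenic value was -1.0 and was called (adjusted p = 0.000359), and the subcutaneous one was called in 8 of 20 alternative settings, among them a fit of its own 8 libraries (adjusted p = 0.00793) and by DESeq2 (adjusted p = 0.0329).

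Tie1 (chr4:118471191-118490061, minus strand) had 33.6, 22.5, 34.5 and 33.7 CPM in splenic C26 muscles, against 20.02, 21.3, 23.3 and 18.8 CPM in sham muscles. Tie1 had 21.1, 16.5, 22.7 and 24.7 CPM in subcutaneous C26 muscles, against 22.7, 25.8, 25.4 and 21.4 CPM in controls. The splenic C26 libraries other than replicate 2 were above all sham libraries, and the subcutaneous comparison overlapped. Tie1 rose by a log2 fold change of 0.57 ± 0.15 (SE, n = 4 each) in splenic C26 (edgeR adjusted p = 0.00565) and had -0.17 ± 0.15 in subcutaneous C26 (adjusted p = 0.363). With upper-quartile scaling the splenic value was 0.37 and no longer called (adjusted p = 0.0652), and the subcutaneous value was -0.40 and called lower (adjusted p = 0.0469). The ratio of Tie1 to Tek was 0.761, 1.32, 2.83 and 2.21 in splenic C26 muscles, against 0.774, 0.658, 0.856 and 0.661 in sham muscles. It was 0.982, 1.22, 0.935 and 1.16 in subcutaneous C26 muscles, against 0.708, 0.632, 0.786 and 0.721 in controls. The groups overlapped in the splenic comparison through replicate 1 and did not in the subcutaneous one. The ratio was 1.5 times the control ratio in subcutaneous C26 (exact two-sided permutation p = 0.0286, adjusted 0.0343), while in splenic C26 the difference of 1.11 on the log2 scale did not pass (exact permutation p = 0.0857, adjusted 0.0857).

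Angpt1, which encodes the ligand that activates TEK and comes from perivascular and other cells, had 15.7, 9.32, 4.47 and 5.32 CPM in splenic C26 muscles, against 27.8, 22.2, 27.4 and 22.9 CPM in sham muscles. Angpt1 had 6.47, 6.13, 18.4 and 4.55 CPM in subcutaneous C26 muscles, against 21.2, 22.3, 25.9 and 26.5 CPM in controls. The groups did not overlap in either comparison, and the highest tumour values were those of splenic C26 replicate 1 and subcutaneous C26 replicate 3. Angpt1 fell by 1.52 ± 0.41 on the log2 scale in splenic C26 and fell by 1.44 ± 0.41 in subcutaneous C26 (edgeR adjusted p = 0.00696 and 0.00997). Angpt2, which encodes the context-dependent antagonist stored in endothelial cells, averaged 2.52 ± 1.87 CPM in splenic C26 and 1.92 ± 0.377 CPM in sham muscles, a log2 fold change of 0.38 ± 0.43 that did not pass (edgeR adjusted p = 0.468). It averaged 0.866 ± 0.256 CPM in subcutaneous C26 and 2.1 ± 0.317 CPM in control muscles, and fell by 1.32 ± 0.45 (edgeR adjusted p = 0.0233). Ptprb, the endothelial phosphatase that dampens TEK, had -0.15 ± 0.17 and -0.41 ± 0.17 and passed in neither comparison (edgeR adjusted p = 0.476 and 0.0586). Itgb1, an integrin chain that also binds angiopoietins and is widely expressed, rose by 0.61 ± 0.19 in subcutaneous C26 (edgeR adjusted p = 0.0157), and Angptl4, an angiopoietin-like inhibitor of lipoprotein lipase, had 1.25 ± 0.59 in splenic C26 and did not pass (adjusted p = 0.0879). In splenic C26 Itgb1 averaged 315 ± 76.8 CPM, against 246 ± 7.89 CPM in sham muscles (SD, n = 4 each). In subcutaneous C26 Angptl4 averaged 29.1 ± 8.08 CPM, against 16.3 ± 11.5 CPM in controls.

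The adhesion genes of endothelial junctions, Cdh5, Pecam1 and Esam, gave 3 different sets of calls. Cdh5 (chr8:104101625-104144511, plus strand), which encodes VE-cadherin of the adherens junction, had 124, 63.4, 114 and 99.2 CPM in splenic C26 muscles, against 89.8, 98.0, 87.1 and 74.7 CPM in sham muscles. In subcutaneous C26 muscles it had 61.9, 47.9, 65.8 and 61.9 CPM, against 97.3, 106, 95.8 and 94.0 CPM in controls. The splenic comparison overlapped, with replicate 2 below every sham library, and the subcutaneous one did not. Cdh5 fell by 0.73 ± 0.17 on the log2 scale in subcutaneous C26 (SE, n = 4 each, edgeR adjusted p = 0.00332), a call kept in each of 20 alternative settings, and had 0.20 ± 0.17 in splenic C26 (adjusted p = 0.343). The splenic value was 0.36 and called without splenic C26 replicate 2 (adjusted p = 0.0360), and changed sign to -0.0026 with upper-quartile scaling. The gene overlaps the antisense gene Gm29682, and whether counting used strand is not given in the sources used here.

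Pecam1 (chr11:106654217-106750628, minus strand), which encodes an adhesion molecule found on endothelium, platelets and leukocytes, had 122, 68.3, 74.7 and 87.1 CPM in splenic C26 muscles, against 54.0, 60.8, 52.7 and 47.5 CPM in sham muscles. Pecam1 had 71.3, 53.1, 68.7 and 68.8 CPM in subcutaneous C26 muscles, against 68.8, 79.5, 61.9 and 66.0 CPM in controls. Every splenic C26 library was above every sham library, replicate 1 the most, and the subcutaneous comparison overlapped. Pecam1 rose by a log2 fold change of 0.71 ± 0.17 (SE, n = 4 each) in splenic C26 (edgeR adjusted p = 0.00280), called in each of 20 alternative settings, and had -0.08 ± 0.16 in subcutaneous C26 (adjusted p = 0.714). The ratio of Pecam1 to Cdh5 was 0.979, 1.1, 0.657 and 0.879 in splenic C26 muscles, against 0.606, 0.624, 0.610 and 0.641 in sham muscles. It was 1.15, 1.11, 1.04 and 1.11 in subcutaneous C26 muscles, against 0.710, 0.751, 0.650 and 0.706 in controls. No tumour value fell within its tumour-free range, though splenic C26 replicate 3 came close. It was 1.42 times the sham ratio in splenic C26 and 1.57 times the control ratio in subcutaneous C26 (exact two-sided permutation p = 0.0286 in each, adjusted 0.0343).

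Esam (chr9:37528078-37538319, plus strand), which encodes an adhesion molecule of endothelial tight junctions and platelets, had 33.9, 25.4, 28.6 and 37.1 CPM in splenic C26 muscles, against 14.6, 15.6, 12.8 and 12.0 CPM in sham muscles. Esam had 22.1, 17.6, 17.1 and 23.8 CPM in subcutaneous C26 muscles, against 13.1, 15.5, 14.8 and 15.5 CPM in controls. The tumour libraries were above the tumour-free ones in both comparisons without overlap. Esam rose by a log2 fold change of 1.18 ± 0.15 (SE, n = 4 each) in splenic C26 (edgeR adjusted p = 6.4e-05) and 0.45 ± 0.14 in subcutaneous C26 (adjusted p = 0.0175). The splenic call was kept in each of 20 alternative settings, and the subcutaneous call was lost with upper-quartile scaling (0.21, adjusted p = 0.248) and when control replicate 1, or replicate 1 or 4 of subcutaneous C26, was omitted (adjusted p = 0.0633 to 0.0846).

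Other junction and caveola genes also moved in both directions. Of 19 measured, 5 rose and 5 fell in splenic C26, with a median log2 fold change of -0.10, and 3 rose and 5 fell in subcutaneous C26, with a median of -0.15. Cldn5, the main claudin of endothelial tight junctions, had 21.1, 7.76, 24.8 and 35.1 CPM in splenic C26 muscles, against 4.10, 5.96, 4.69 and 3.53 CPM in sham muscles. The groups did not overlap, and Cldn5 rose by a log2 fold change of 2.28 ± 0.37 in splenic C26 (edgeR adjusted p = 0.000333). In subcutaneous C26 it averaged 6.64 ± 3.08 CPM, against 7.05 ± 0.690 CPM in controls (SD, n = 4 each), a log2 fold change of -0.09 ± 0.36 (edgeR adjusted p = 0.849). The difference between both effects was 2.37 ± 0.51, which did not pass adjustment (edgeR adjusted p = 0.107). Every sham value of Cldn5 lay below the lowest control value of 6.34 CPM, and this gap enters the difference. Plvap, which forms the diaphragms of endothelial caveolae and fenestrae, averaged 46.2 ± 12.8 CPM in splenic C26 and 16.9 ± 2.79 CPM in sham muscles, and 44.2 ± 7.58 CPM in subcutaneous C26 and 15.3 ± 1.54 CPM in control muscles. It rose by 1.45 ± 0.19 and 1.53 ± 0.19 (edgeR adjusted p = 8.2e-05 and 6.4e-05). Ctnna1, which encodes the catenin that ties cadherins to actin in many cell types, rose by 1.09 ± 0.16 in subcutaneous C26 (edgeR adjusted p = 0.000175). In splenic C26 Ctnna1 averaged 120 ± 15.7 CPM, against 63.6 ± 2.04 CPM in sham muscles.

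Eng (chr2:32646595-32682669, plus strand) encodes endoglin, a co-receptor for bone morphogenetic protein (BMP) signals through the receptor ALK1, and is found on some stromal cells and macrophages besides endothelium. It had 65.4, 41.3, 37.4 and 38.2 CPM in splenic C26 muscles, against 39.8, 45.8, 41.6 and 46.5 CPM in sham muscles. In subcutaneous C26 muscles it had 43.82, 32.9, 48.0 and 43.4 CPM, against 45.4, 54.6, 39.9 and 44.5 CPM in controls. Splenic C26 replicate 1 stood above all sham libraries and replicates 3 and 4 below them, and the subcutaneous comparison overlapped. Eng passed in neither comparison, with log2 fold changes of 0.07 ± 0.17 (SE, n = 4 each, edgeR adjusted p = 0.745) and -0.13 ± 0.17 (adjusted p = 0.537), and the splenic value was -0.15 without splenic C26 replicate 1 and -0.11 with upper-quartile scaling. Acvrl1, which encodes ALK1, fell by 0.60 ± 0.24 in splenic C26 (edgeR adjusted p = 0.0478) and had 0.08 ± 0.24 in subcutaneous C26 (adjusted p = 0.803). For Acvrl1, splenic C26 replicate 1 lay above every sham library, and replicates 2, 3 and 4, at 11.4, 6.86 and 8.97 CPM, lay below every one. Sham values of Acvrl1, 15.5 to 20.3 CPM, all lay above the control values of 11.8 to 15.1 CPM. The part of this gap in the splenic call was not tested. Of 16 genes of the ALK1 and BMP pathway, 5 rose and 3 fell in splenic C26 (median log2 fold change 0.12), and 4 rose and 4 fell in subcutaneous C26 (median 0.17). Tgfbr2, the type II receptor for TGF-beta in many cell types, rose by 1.21 ± 0.25 and 1.26 ± 0.25 (edgeR adjusted p = 0.00136 and 0.00116). The BMP-regulated transcription factor gene Smad1 rose by 1.51 ± 0.29 in splenic C26 (edgeR adjusted p = 0.000775), and the common partner gene Smad4 rose by 0.82 ± 0.15 in subcutaneous C26 (adjusted p = 0.000623). Smad1 averaged 15.5 ± 2.24 CPM in subcutaneous C26 and 11.8 ± 1.35 CPM in control muscles (SD, n = 4 each). Smad4 averaged 102 ± 15.3 CPM in splenic C26 and 63.8 ± 7.02 CPM in sham muscles.

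Egfl7 (chr2:26580014-26593120, plus strand) encodes a secreted endothelial matrix protein and hosts the microRNA gene Mir126a. It had 23.6, 15.7, 18.8 and 24.1 CPM in splenic C26 muscles, against 14.0, 15.3, 13.9 and 14.1 CPM in sham muscles. Egfl7 had 13.7, 11.3, 14.99 and 14.6 CPM in subcutaneous C26 muscles, against 18.3, 19.8, 16.6 and 18.6 CPM in controls. All splenic C26 libraries were above all sham libraries, and all subcutaneous C26 libraries were below all controls. Egfl7 rose by a log2 fold change of 0.52 ± 0.14 (SE, n = 4 each) in splenic C26 (edgeR adjusted p = 0.00589), a call lost with upper-quartile scaling (0.32, adjusted p = 0.0958), and fell by 0.43 ± 0.14 in subcutaneous C26 (adjusted p = 0.0177). The gene also overlaps Gm20532 on the same strand, and Sox17 and Eng overlap genes on the opposite strand, so their counts are uncertain to that extent.

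Sox17 (chr1:4490931-4497354, minus strand), a transcription factor gene of arterial endothelium, had the lowest counts of the 10. It had 12.7, 7.40, 10.8 and 13.0 CPM in splenic C26 muscles, against 5.43, 3.94, 2.89 and 3.26 CPM in sham muscles. Sox17 had 7.77, 4.83, 6.58 and 5.74 CPM in subcutaneous C26 muscles, against 3.66, 4.29, 4.29 and 3.79 CPM in controls. Tumour libraries were higher without overlap in both comparisons. Sox17 rose by a log2 fold change of 1.5 ± 0.22 (SE, n = 4 each) in splenic C26 (edgeR adjusted p = 0.000194) and 0.64 ± 0.22 in subcutaneous C26 (adjusted p = 0.0271). The splenic call was kept in each of 20 alternative settings, and the subcutaneous one was lost with upper-quartile scaling (0.40, adjusted p = 0.161) and when control replicate 1 or 4, or replicate 1 of subcutaneous C26, was omitted (adjusted p = 0.0588 to 0.0978).

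Sox7 and Sox18, which encode factors related to SOX17, were not called higher. Sox7 averaged 3.19 ± 1.15 CPM in splenic C26 and 6.67 ± 1.06 CPM in sham muscles (SD, n = 4 each), and 2.54 ± 1.40 CPM in subcutaneous C26 and 4.84 ± 0.332 CPM in control muscles. It fell by 1.06 ± 0.30 and 0.94 ± 0.30 on the log2 scale (edgeR adjusted p = 0.00928 and 0.0190). Sox18 passed in neither comparison, with log2 fold changes of 0.11 ± 0.35 and 0.58 ± 0.35 (edgeR adjusted p = 0.812 and 0.178). Erg, an ETS factor that maintains endothelial identity, had -0.01 ± 0.18 in splenic C26 (edgeR adjusted p = 0.978) and fell by 0.50 ± 0.18 in subcutaneous C26 (adjusted p = 0.0288). Of 23 endothelial transcription factor genes, 5 rose and 5 fell in splenic C26 (median log2 fold change -0.34), and 1 rose and 11 fell in subcutaneous C26 (median -0.50). Foxo1, which is also abundant in muscle fibres, rose by 2.52 ± 0.26 and 2.87 ± 0.26 (edgeR adjusted p = 2.1e-05 and 1.0e-05). Ets2 rose by 1.80 ± 0.26 in splenic C26 (edgeR adjusted p = 0.000158), and Meox2, a homeobox gene of muscle endothelium and muscle cells, fell by 0.92 ± 0.20 in subcutaneous C26 (adjusted p = 0.00194). Ets2 averaged 109 ± 7.35 CPM in subcutaneous C26 and 74.2 ± 3.34 CPM in control muscles. Meox2 averaged 9.36 ± 3.67 CPM in splenic C26 and 12.6 ± 1.10 CPM in sham muscles.

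Levels can be ordered between genes only per length. In the deposited log2 values each gene equals log2 CPM less a constant that tracks its length, and on that scale Kdr was rank 9 of the 10 in splenic C26 at 2.00 ± 0.38 (mean ± SD, n = 4), against rank 4 in sham muscles at 3.31 ± 0.20. It was rank 9 in subcutaneous C26 at 1.56 ± 0.11, against rank 6 in controls at 3.34 ± 0.19. Esam was rank 3 in splenic C26 at 4.06 ± 0.24 and rank 4 in subcutaneous C26 at 3.43 ± 0.23, against rank 7 in both tumour-free groups, at 2.89 ± 0.17 in sham and 2.99 ± 0.11 in control muscles. In CPM per kb of exon the order differed in part: Kdr was rank 9 in both tumour groups, against rank 5 in both tumour-free groups, and Esam rank 4 in both tumour groups, against rank 6 in both tumour-free groups. Cdh5 led in all 4 groups per kb of exon, at 23.9 in splenic C26, 20.8 in sham, 14.1 in subcutaneous C26 and 23.4 in control muscles, whereas on the deposited scale Pecam1 stood above it in both tumour groups. Sox17 was the lowest of the 10 in every group on both scales. Neighbours in the order of deposited values often overlapped: in splenic C26 only Eng and Tie1, at ranks 6 and 7, had separate ranges. In sham muscles the genes at ranks 1 and 2, 2 and 3, 6 and 7, and 9 and 10 had separate ranges.

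Set against the geometric mean of the other 9 markers in the same library, which removes library scaling, Kdr changed by -1.80 on the log2 scale in splenic C26 against sham and by -1.63 in subcutaneous C26 against control. Sox17 changed by 1.33 and 1.03 on this scale and Esam by 0.96 and 0.84. For these 3 genes the tumour and tumour-free libraries did not overlap in either comparison. Tek changed by -1.02 and -0.53, with an overlap in the splenic comparison alone. These values describe the spread within the 10 and were not tested.

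The effects of both tumour sites were then compared. The splenic log2 fold change minus the subcutaneous one was positive for all 10 markers, against 48.9% of all genes, with a median of 0.73 against -0.01 over all genes tested. It was positive for 23 of 33 other pan-endothelial genes (median 0.29) and 12 of 23 endothelial transcription factor genes (median 0.01). Outside endothelium it was positive for 8 of 8 Schwann cell markers (median 0.65) and 2 of 12 fibro-adipogenic progenitor markers, so this trait was not particular to the 10. None of the 10 passed the edgeR test after adjustment (0.0% of all genes did). At an unadjusted p under 0.05, 6 of the 10 did (Sox17, Pecam1, Egfl7, Tie1, Cdh5 and Esam), against 6.39% of all genes. The largest differences were those of Egfl7, 0.95 ± 0.19 (edgeR adjusted p = 0.0983), and Cdh5, 0.93 ± 0.24 (adjusted p = 0.268). DESeq2 called these (adjusted p = 0.000642 for Egfl7 and 0.0274 for Cdh5) among 84 higher and 2 lower genes, while limma-voom and limma-trend called no gene. Without splenic C26 replicate 2, edgeR called the same pair (adjusted p = 0.0271 each). For Kdr the difference was 0.51 ± 0.24 (adjusted p = 0.780) and for Tek 0.37 ± 0.46 (adjusted p = 0.963), which turned to -0.21 without splenic C26 replicate 1. Each difference also takes in the gap between sham and control, which was negative for all 10 markers and -0.36 for both Egfl7 and Pecam1.

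The tumour-free groups, which differ in sample name and may differ in handling, were also set side by side. In sham against control, none of the 10 markers passed the edgeR test (0.00751% of all genes, that is 1 gene, did) or was called by DESeq2, limma-voom or limma-trend, and 2 of the 10 had an unadjusted p under 0.05, against 2.1% of all genes. All 10 log2 fold changes were negative, with a median of -0.13, while 50.5% of all genes had a positive one. Sham values of Pecam1 and Egfl7 lay below all control values (2.39% of all genes had no overlap with sham lower). Pecam1 averaged 53.8 ± 5.46 CPM in sham and 69.1 ± 7.50 CPM in control muscles, and Egfl7 averaged 14.3 ± 0.639 CPM in sham and 18.3 ± 1.32 CPM in control muscles (SD, n = 4 each).

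Markers of other cells also moved between groups, and their part in the results above was not tested. Fibro-adipogenic progenitor markers fell in 9 of 12 genes in splenic C26 and 7 of 12 in subcutaneous C26, with median log2 fold changes of -1.24 and -1.35 and summed levels of 1038 to 3270 CPM in splenic C26 against 3134 to 4001 CPM in sham, and 1063 to 1968 CPM in subcutaneous C26 against 2398 to 4476 CPM in control muscles. Of 13 markers of pericytes and smooth muscle, 3 fell and 2 rose in splenic C26 and 9 fell and 2 rose in subcutaneous C26. Their sums, which the abundant genes dominate, were 3906 to 7390 CPM in splenic C26 against 2825 to 3928 CPM in sham, and 5811 to 8122 CPM in subcutaneous C26 against 3100 to 4107 CPM in control muscles. Of 12 macrophage and leukocyte markers, which matter for Pecam1 and Eng, 2 rose and 1 fell in splenic C26 and 2 rose in subcutaneous C26, with sums of 169 to 379 CPM in splenic C26, 247 to 327 CPM in sham, 156 to 419 CPM in subcutaneous C26 and 149 to 311 CPM in control muscles. Only 3 of 8 platelet markers were measured, 2 of which rose in splenic C26, and their sums were 6.14 to 11.4 CPM in splenic C26, 5.43 to 8.51 CPM in sham, 5.11 to 9.08 CPM in subcutaneous C26 and 3.86 to 9.30 CPM in control muscles. The platelet receptor genes Gp1ba, Gp1bb, Gp9 and Gp6 have no row in the table used here. Neutrophil granule markers rose in 8 of 9 genes in splenic C26, with sums of 3.50 to 175 CPM against 0.615 to 0.926 CPM in sham. In subcutaneous C26 none of the 9 passed the test, with sums of 2.53 to 27.3 CPM against 0.690 to 47.5 CPM in controls, where replicate 1 was highest. Of 8 red blood cell markers 4 were measured, the haemoglobin genes having no row in the table used here. Of these, 3 rose in splenic C26, with sums of 13.0 to 48.9 CPM against 4.34 to 6.16 CPM in sham, and 2 rose in subcutaneous C26, with sums of 9.24 to 136 CPM against 4.21 to 14.9 CPM in controls. Schwann cell markers fell in 3 of 8 genes in splenic C26 and 6 of 8 in subcutaneous C26. Their sums did not overlap, at 30.8 to 61.1 CPM in splenic C26 against 67.9 to 82.0 CPM in sham, and 31.6 to 52.2 CPM in subcutaneous C26 against 59.8 to 96.8 CPM in controls.

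**Figure D4:**
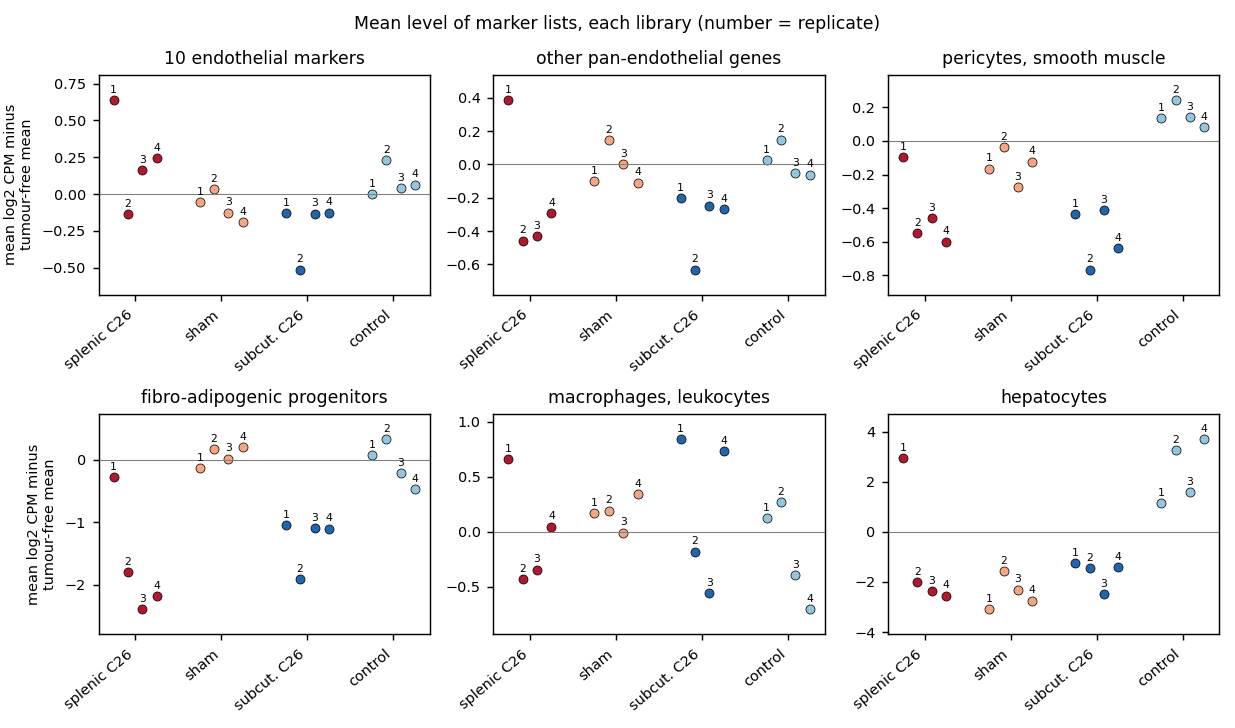
Mean log2 CPM of 6 marker lists in each library, less its mean over the 8 tumour-free libraries, with the replicate number above each point and each panel on its own scale. Splenic C26 replicate 1 is highest of its group for the 10 endothelial markers, at 0.64, and for hepatocyte markers, at 2.96.

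Variation between libraries of a group was shared by many of the 10 markers. In splenic C26, replicate 1 was highest for 5 of the 10 and replicate 2 lowest for 8. The mean log2 level of the 10, over the tumour-free mean, was 0.64 in splenic C26 replicate 1 and -0.14, 0.16 and 0.24 in replicates 2, 3 and 4. In subcutaneous C26, replicate 2 was lowest for 8 of the 10, and in controls replicate 2 was highest for 9. In the hepatocyte list, splenic C26 replicate 1 stood at 2.96 and the other 3 splenic C26 libraries between -2.54 and -2.01, and 8 of 10 hepatocyte markers were called higher in splenic C26. Subcutaneous C26 libraries stood between -2.49 and -1.25 and controls between 1.13 and 3.70, and 8 of 10 hepatocyte markers were called lower in subcutaneous C26. In an omission chosen after seeing the data, 4 libraries were left out that were each the highest of their group in 1 list: splenic C26 replicate 1 in hepatocyte markers, splenic C26 replicate 3 and control replicate 1 in neutrophil markers, and subcutaneous C26 replicate 4 in red blood cell markers. Controls 2, 3 and 4, with hepatocyte levels of 3.27, 1.59 and 3.70, stayed in, and in the subcutaneous comparison the hepatocyte level and the group cannot be told apart. Without these 4 libraries 2 of the 10 endothelial markers fell in splenic C26, Kdr and Tek (-0.86, edgeR adjusted p = 0.00620). Flt1 and Tie1 were then not called higher in splenic C26 (adjusted p = 0.301 and 0.0509), and none of the 10 rose in subcutaneous C26.

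The genes whose profile over the 16 libraries was nearest the mean profile of the 10 were, in order, Pcdh1, Ablim3, Plcb4, Magi1, Robo4, Clec14a, Col4a1 and Atp2a3. Each profile was standardised to mean 0 and SD 1, and their root mean square differences were 0.481 to 0.597 SD, against a median of 1.22 SD over 9345 genes compared. Kdr itself lay 1.13 SD from the mean of the 10 and Tek 0.979 SD, the farthest of the 10, and Egfl7 lay nearest at 0.486 SD. The gene nearest to Kdr was Adgrl2, at 0.224 SD, and the gene nearest to Tek was the ETS factor gene Elk3, at 0.292 SD. Esam and Sox17 had the same nearest gene, Prom1, at 0.296 and 0.322 SD. The nearest genes were Mpzl1 for Cdh5 (0.403 SD), Pcdh1 for Egfl7 and Tie1 (0.419 and 0.476 SD), Pde2a for Pecam1 (0.486 SD), Mmrn2 for Eng (0.521 SD) and Tanc1 for Flt1 (0.586 SD). These profiles share the groups, libraries and depths, so the likeness is a description.

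Endothelial genes outside the 10 also moved in both directions. Over 160 measured genes of 9 vascular lists, 49 rose and 33 fell in splenic C26, or 30.6% and 20.6%, near the 28.1% and 23.9% of all genes. In subcutaneous C26 31 rose and 51 fell, or 19.4% and 31.9%, against 27.0% and 23.1% of all genes, and these shares were not tested. Of 33 other pan-endothelial genes, 11 rose and 9 fell in splenic C26 (median log2 fold change 0.17), and 7 rose and 14 fell in subcutaneous C26 (median -0.22). Vwf, which encodes von Willebrand factor, rose by 0.64 ± 0.21 and 0.58 ± 0.21 (edgeR adjusted p = 0.0194 and 0.0322). Emcn, which encodes a surface sialomucin of capillaries and veins, rose by 0.47 ± 0.17 in splenic C26 (edgeR adjusted p = 0.0345) and fell by 0.44 ± 0.17 in subcutaneous C26 (adjusted p = 0.0445). Its levels were 9.24 to 16.1 CPM in splenic C26 and 7.61 to 10.4 CPM in sham muscles, which overlapped. They were 8.28 to 10.5 CPM in subcutaneous C26 and 11.1 to 15.1 CPM in control muscles. Every sham value of Emcn thus lay below every control value, and the part of this gap in the opposite directions was not tested. Ece1, the endothelin-converting enzyme, rose by 1.26 ± 0.16 and 1.30 ± 0.16 (edgeR adjusted p = 8.1e-05 and 6.8e-05), and Cyyr1 rose by 1.36 ± 0.14 and 0.83 ± 0.14 (adjusted p = 1.9e-05 and 0.000348). Of 19 Notch and arterial genes, 3 rose and 2 fell in splenic C26 (median -0.07), and 2 rose and 7 fell in subcutaneous C26 (median -0.59). The endothelial Notch receptor gene Notch4 rose by 1.15 ± 0.15 in splenic C26 (edgeR adjusted p = 8.8e-05). In subcutaneous C26 Notch4 averaged 17.3 ± 1.75 CPM, against 13.8 ± 2.09 CPM in controls (SD, n = 4 each). The arterial semaphorin gene Sema3g rose by 1.23 ± 0.19 and 1.0 ± 0.18 (adjusted p = 0.0002 and 0.00071), and Unc5b, a netrin receptor gene of arteries and tip cells, fell by 2.25 ± 0.30 in subcutaneous C26 (adjusted p = 0.000103). In splenic C26 Unc5b averaged 1.78 ± 0.680 CPM, against 5.29 ± 1.08 CPM in sham muscles (SD, n = 4 each).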

How the data were processed

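Messenger RNA of quadriceps was sequenced with paired 75-base reads, and RNA isolation and sequencing of all 16 libraries were done together, per the labels' protocols. The authors' deposited table of raw counts came from STAR and featureCounts, per the labels, on mm10, per the submitters' processing notes, which also name FastQC and edgeR. No tool version or strand setting was given in the sources used here. The authors also deposited log2 normalized values. For 6753 genes with at least 200 counts in every library these equal log2 CPM less 1 constant per gene (residual SD 0.00102), and the constant tracked exon length across genes (r = 0.799). Both tables held 13320 genes and 4013 blank lines, which were left out.

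Counts were fitted with edgeR 4.0.16 in R 4.3.3 (TMM scaling, robust quasi-likelihood, 1 mean per group, all genes kept). Dispersion was shared by all 16 libraries, with TMM factors between 0.802 and 1.21. Log2 fold changes came from this fit. Their SE was worked back from the fold change and the F statistic of the test, so it draws on the spread of all 16 libraries. The test was checked on simulated counts. That simulation changed a small set of genes in splenic C26, as many up as down. It could not check the scaling where much of the table differs. Ratios of markers used log2(CPM + 1) with a pseudocount of 1 CPM and exact two-sided permutation tests. Libraries of a group differed beyond sampling noise (chi-square per degree of freedom at least 13.0), so none was counted as a duplicate. Alternatives were other scalings, filters and thresholds, DESeq2 1.42.0, limma 3.58.1, fits of 8 libraries and omission of each library, and 2 omissions added after seeing the data. The alternative without a filter equalled the main fit, which kept all genes, and the threshold of 0.01 reused the main fit. Coordinates are from GENCODE M21 on mm10, to which 12868 symbols (96.6%) matched.

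The 10 markers and the other gene lists were chosen with earlier results of these data known. Besides the 10, named genes are a set of ligands and partners, the 2 genes with the smallest p in each vascular list and comparison, and the 8 genes nearest in profile with a mean of at least 5 CPM.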

Additional observations from a re-analysis of the deposited data

Results flagged for a closer look

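A library was set apart when the gap to the nearest other library of its group took more of the group's range than Dixon's 95% critical value for 4 samples. This was tested in 40 groups of values, the 10 markers in 4 groups each, and 5 were flagged. Chance flags about 1 in 20 groups, and these tests share libraries and are not independent. Tek in splenic C26 replicate 1 was the highest of its group at 44.5 CPM, and so was Eng in the same library at 65.4 CPM. Tie1 in splenic C26 replicate 2 was the lowest of its group at 22.5 CPM. Pecam1 in subcutaneous C26 replicate 2 was the lowest of its group at 53.1 CPM. Kdr in control replicate 4 was the highest of its group at 67.2 CPM, and the log2 fold change of Kdr in subcutaneous C26 was called in each single omission, between -1.84 and -1.68.

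Egfl7 was flagged because its tumour effects ran in opposite directions, above all sham libraries in splenic C26 and below all controls in subcutaneous C26. The tumour-free groups were themselves unequal, at 14.3 ± 0.639 CPM in sham and 18.3 ± 1.32 CPM in control muscles (SD, n = 4 each). Subcutaneous C26 averaged 13.6 ± 1.63 CPM, and the gap between sham and control enters the difference below. The tested difference was 0.95 ± 0.19 on the log2 scale (edgeR quasi-likelihood test, adjusted p = 0.0983), so it did not pass the threshold.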

How the results depend on the processing

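No paired analysis was possible because replicate numbers follow accession order and link no libraries across groups. With upper-quartile scaling 3 markers rose in splenic C26 (6 with TMM scaling), and in subcutaneous C26 0 rose and 5 fell (2 and 3 with TMM scaling). At an adjusted p of 0.01, 0 rose in subcutaneous C26. For the difference of tumour effects DESeq2 called 2 higher (0 with edgeR), and without the 2 tumour libraries nearest the tumour-free ones (splenic C26 replicate 1 and subcutaneous C26 replicate 3) edgeR called 1. In splenic C26 2 markers fell (1 with all libraries) after either added omission, and 0 rose in subcutaneous C26 without 4 libraries (splenic C26 replicates 1 and 3, subcutaneous C26 replicate 4 and control replicate 1).

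Leaving out 1 library at a time, 5 to 7 markers rose and 1 to 2 fell in splenic C26, 0 to 2 rose and 3 to 3 fell in subcutaneous C26, and 0 to 2 were called higher in the difference. The Flt1 to Kdr log2 ratio difference ranged from 1.58 to 1.82 in splenic C26 and from 1.59 to 1.83 in subcutaneous C26, given with no test, since 3 against 4 libraries cannot go below an exact p of 0.0571.

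Signs changed for values that had not passed, and the cause was not tested. Cdh5 in splenic C26 was -0.0026 with upper-quartile scaling and -0.093 without the 4 libraries. Eng in splenic C26 was -0.11 with upper-quartile scaling, -0.12 without the 4 libraries, -0.16 without the 2, and -0.15 to 0.15 over single omissions. The Tek difference was -0.021 without the 4 libraries, -0.14 without the 2, and -0.21 to 0.58 over single omissions. Over single omissions Flt1 in subcutaneous C26 ranged from -0.15 to 0.065, and in sham against control Kdr ranged from -0.11 to 0.077, Flt1 from -0.19 to 0.026, Sox17 from -0.25 to 0.071 and Eng from -0.15 to 0.0034.

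Depth was 25.9 to 34.9 M counts per library. The main limits are 4 libraries a group, tumour-free groups under separate sample names, 4 markers that overlap other annotated genes, and bulk tissue without counts of vessels or cells.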

Other observations

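Of 18 measured genes of endothelial activation and coagulation, 11 rose and 2 fell in splenic C26 against sham, where 28.1% of all genes were called higher and 23.9% lower. In subcutaneous C26 against control 9 rose and 3 fell, where 27.0% of all genes were called higher and 23.1% lower. Their median log2 fold changes were 1.07 and 0.84, against -0.03 and -0.02 over all genes. Their mean log2 level, over the tumour-free mean, was 0.45 to 1.36 in splenic C26 and -0.11 to 0.05 in sham libraries. It was 0.32 to 0.98 in subcutaneous C26 and -0.27 to 0.36 in control libraries, which overlapped. Selp, which encodes the leukocyte-binding P-selectin of endothelium and platelets, had 9.89, 5.96, 20.2 and 18.1 CPM in splenic C26 muscles, against 0.957, 0.682, 1.34 and 1.37 CPM in sham muscles. The groups did not overlap, and Selp rose by a log2 fold change of 3.63 ± 0.38 (edgeR adjusted p = 2.1e-05). Subcutaneous C26 muscles averaged 4.64 ± 0.615 CPM of Selp, against 1.48 ± 0.485 CPM in controls (SD, n = 4 each). Lrg1, which encodes a secreted glycoprotein also made by liver and neutrophils, rose by 3.43 ± 0.44 in splenic C26 and 2.57 ± 0.43 in subcutaneous C26 (edgeR adjusted p = 8.8e-05 and 0.0004). The widely expressed tumour necrosis factor receptor gene Tnfrsf1a rose by 1.02 ± 0.15 in subcutaneous C26 (edgeR adjusted p = 0.000211). In splenic C26 muscles Tnfrsf1a averaged 56.5 ± 8.08 CPM, against 28.4 ± 3.40 CPM in sham muscles (SD, n = 4 each). Several of these genes are not limited to endothelium, and neutrophil granule markers also rose in splenic C26. Their part was not tested.

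Muscle capillary genes went both ways. Of 16 measured, 5 rose and 4 fell in splenic C26 (median log2 fold change 0.10), and 3 rose and 3 fell in subcutaneous C26 (median 0.14). Apln encodes the peptide apelin, and its cell source in bulk muscle was not tested. It had 0.223, 0, 0 and 0 CPM in splenic C26 muscles, against 1.67, 2.07, 2.1 and 1.75 CPM in sham muscles. It had 0, 0.0635, 0.0414 and 0.0741 CPM in subcutaneous C26 muscles, against 1.54, 1.81, 1.63 and 1.42 CPM in controls. These are 7 counts over the splenic C26 libraries against 250 over the sham libraries, and 5 counts over the subcutaneous C26 libraries against 208 over the controls. Apln fell in both comparisons (edgeR adjusted p = 0.00014 and 0.000134), and its fitted fold change is not given because it depends on the prior count. Car4, which encodes carbonic anhydrase 4 on the capillary surface, averaged 18.3 ± 6.05 CPM in splenic C26 and 3.6 ± 0.924 CPM in sham muscles (SD, n = 4 each) and rose by a log2 fold change of 2.34 ± 0.24 (edgeR adjusted p = 2.05e-05). Rgcc, a gene of capillary endothelium that other cells also express, had 160, 213, 46.0 and 181 CPM in subcutaneous C26 muscles, against 31.6, 37.5, 31.4 and 28.0 CPM in controls. All tumour libraries were higher, replicate 3 the least, and Rgcc rose by 2.22 ± 0.58 (edgeR adjusted p = 0.00597). In splenic C26 muscles Rgcc had 36.2, 134, 368 and 440 CPM, against 24.9, 31.3, 19.3 and 24.6 CPM in sham muscles. Of 6 lymphatic endothelial markers 1 rose and 1 fell in subcutaneous C26, and in splenic C26 none was called.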
